A study of Mus musculus with 12 samples.

Results

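The 34 genes described here make, regulate or move cholesterol and fatty acids. They were taken by name from the pathway, with earlier results of these data known, and all 34 had 1 row in each of the 2 deposited count tables, which list 29736 genes for LSK and 31042 for GMP (24982 in both). By role they were 8 genes of the mevalonate steps, 11 of the squalene and sterol steps, 6 of sterol sensing and sterol transport, 6 of fatty acid synthesis and 3 targets of the liver X receptors (LXR). LSK are lineage-negative bone marrow cells that carry Sca-1 and Kit, a fraction enriched in stem and multipotent progenitor cells, and GMP are the granulocyte-monocyte progenitors further down the myeloid path. Both came from bone marrow of C57BL/6 mice, described in the series title as melanoma-bearing. The 4 groups had 3 libraries each: LSK of mice given a STING agonist (diABZI), LSK of control mice, GMP of mice given the STING agonist, and GMP of control mice. STING is the sensor of cyclic dinucleotides that switches on type I interferon, and diABZI is a synthetic small molecule that activates it. Not known from the labels are the mice's age, the dose, the route, the time after treatment, what the control mice received, the number of cells in a library and whether each library came from its own mouse. The p-values below therefore measure the spread between libraries. All groups were profiled by Smart-Seq2, a full-length method that amplifies cDNA from very few cells, and the labels call the samples single-cell, while each library held counts for 15099 to 24971 genes.

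Cholesterol is built from acetyl-CoA through mevalonate, farnesyl diphosphate, squalene and lanosterol. When sterols in the endoplasmic reticulum run low, SCAP carries the transcription factor SREBP-2, encoded by Srebf2, to the Golgi, where it is cut and released to switch on almost every enzyme of the route. INSIG1 and INSIG2 hold SCAP back when sterols are plentiful, and Insig1 is itself an SREBP target. When oxysterols accumulate, LXR switches on genes that export cholesterol. In mouse macrophages type I interferon is known to lower sterol synthesis, and in mouse blood stem and progenitor cells cholesterol efflux through Abca1 and Abcg1 is known to restrain proliferation.

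The proximal promoters of 27 of the 34 genes were found in the RefSeq table of build GRCm38.p6, which spans 250 bases before to 50 bases after each transcript start. No window was found for Sqle, Fdft1, Fdps, Scd1, Scd2, Stard4 and Abcg1. SREBP binds the sterol regulatory element together with the factors NF-Y, which reads CCAAT, and Sp1, which reads GGGCGG. Some genes have several starts, so the 27 genes had 35 windows, and a gene was counted where any of its windows, on either strand, held the motif. CCAAT was present for 22 of the 27 genes (81.5%), against 41.1% of 27025 genes with a window, and GGGCGG likewise for 22 of 27 (81.5%), against 38.2%. Counted by window, CCAAT was in 23 of 35 (65.7%), against 37.4% of all 32851 windows, and GGGCGG in 26 of 35 (74.3%), against 35.7%. The core sterol element TCACNCCAC was present for 1 of the 27 genes (3.70%), Hmgcs1, against 1.44% of all genes. No match of one motif overlapped a match of another in these windows. Windows of 4 genes are printed below: Hmgcs1, the holder of the core element, and Insig1, Cyp51 and Sc5d, which had the lowest p-values of the 34 in GMP. Capitals mark CCAAT or its complement ATTGG and the core element. They lie at chr13:119690101-119690400 on the plus strand for Hmgcs1, chr5:28071162-28071461 on the plus strand for Insig1, chr5:4104648-4104947 on the minus strand for Cyp51 and chr9:42264251-42264550 on the minus strand for Sc5d.
Hmgcs1: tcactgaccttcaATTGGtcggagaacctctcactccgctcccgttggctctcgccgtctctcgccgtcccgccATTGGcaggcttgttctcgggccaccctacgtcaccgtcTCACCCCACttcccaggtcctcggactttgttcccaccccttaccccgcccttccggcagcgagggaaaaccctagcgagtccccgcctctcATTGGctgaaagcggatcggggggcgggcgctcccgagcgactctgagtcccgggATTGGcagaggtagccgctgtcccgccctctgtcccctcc
Insig1: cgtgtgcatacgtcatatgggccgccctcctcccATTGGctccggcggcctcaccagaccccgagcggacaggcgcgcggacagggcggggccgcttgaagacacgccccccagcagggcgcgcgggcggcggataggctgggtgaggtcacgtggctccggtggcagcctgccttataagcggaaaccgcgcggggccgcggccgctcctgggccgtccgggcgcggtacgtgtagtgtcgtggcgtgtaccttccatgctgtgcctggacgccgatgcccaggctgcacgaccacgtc
Cyp51: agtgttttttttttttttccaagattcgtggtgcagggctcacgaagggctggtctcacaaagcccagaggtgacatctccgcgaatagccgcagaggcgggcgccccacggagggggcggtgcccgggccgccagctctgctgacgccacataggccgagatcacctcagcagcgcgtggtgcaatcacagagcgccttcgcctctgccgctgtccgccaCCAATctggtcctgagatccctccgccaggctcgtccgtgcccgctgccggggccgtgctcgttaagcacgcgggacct
Sc5d: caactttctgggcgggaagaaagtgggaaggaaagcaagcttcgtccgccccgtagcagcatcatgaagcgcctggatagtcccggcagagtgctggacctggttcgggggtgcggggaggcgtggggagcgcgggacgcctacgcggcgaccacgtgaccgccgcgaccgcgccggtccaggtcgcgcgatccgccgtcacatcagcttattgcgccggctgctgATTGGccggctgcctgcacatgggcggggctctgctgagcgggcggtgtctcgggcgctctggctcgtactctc
In Hmgcs1 the core element began 137 bases before the start, with CCAAT matches 237, 176 and 45 bases before it and 1 more that began at base 11 after it. Insig1 had a single CCAAT match 216 bases before the start, Cyp51 a single one 29 bases before and Sc5d a single one 24 bases before. A match says only that the letters are there, and binding was not measured. Only exact matches were searched, so a window without one may still hold a variant of the core element.

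The libraries held 30649314 to 47225983 counts, and the level of a gene is given below as its counts divided by the library total and multiplied by 1000000 (CPM). Mitochondrial genes took 2.72 to 3.61% of the counts in LSK with the agonist, against 1.70 to 2.41% in LSK controls, and 1.24 to 1.96% in GMP with the agonist, against 2.13 to 3.52% in GMP controls, so that the groups separated in both cell types, in opposite directions. A list of 13 megakaryocyte markers summed to 110 to 165 CPM in LSK with the agonist (11 of 13 detected, Ppbp and Treml1 at 0), against 292 to 588 CPM in LSK controls (13 of 13 detected). In LSK, 10 granulocyte-monocyte markers, all detected, summed to 1368 to 11330 CPM with the agonist and 387 to 4146 CPM in controls. LSK agonist library 3 had 79.1 CPM of the Fc receptor gene Fcgr3, against 8.17 and 7.55 CPM in agonist libraries 1 and 2. For Cd34 it had 189 CPM, against 36.3 and 19.6 CPM. In GMP, 8 monocyte and macrophage markers summed to 603 to 710 CPM with the agonist and 854 to 997 CPM in controls, and 8 B cell markers to 124 to 127 CPM with the agonist and 183 to 214 CPM in controls, with all markers detected in every group of GMP. Ly6a, which encodes Sca-1, averaged 6.71 ± 2.05 CPM in LSK with the agonist and 0.609 ± 0.213 CPM in LSK controls (SD, n = 3 each), so this defining marker of LSK was almost absent from the control RNA. In GMP, Ly6a averaged 21.1 ± 4.36 CPM with the agonist and 0.198 ± 0.316 CPM in controls (SD, n = 3 each). It was thus higher with the agonist in both cell types, and did not set LSK apart from GMP. Kit averaged 155 ± 11 CPM in LSK with the agonist and 274 ± 76.1 CPM in LSK controls (SD, n = 3 each). The part of each of these differences in the results below was not tested. In such libraries fewer cells of a type and less RNA per cell cannot be told apart.

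With the STING agonist, most of the 34 genes stood lower in LSK and higher in GMP, and no single gene passed the test in either cell type. In LSK, 22 of 34 genes had a negative log2 change and 12 a positive one, with a median of -0.32, against 0.02 over all 13922 genes tested. In GMP, 29 of the 33 genes tested had a positive log2 change and 4 a negative one, with a median of 0.41, against -0.04 over all 15027 genes tested. The scaling used (TMM) put the median of all genes in LSK 0.14 above its value by library totals alone, under which the median of the 34 genes was -0.48 in LSK and 0.34 in GMP. Scd1 was the gene not tested in GMP, because its counts were 0, 0 and 7 with the agonist and 0 in all controls. At an adjusted p below 0.05 (edgeR's quasi-likelihood test, Benjamini-Hochberg over all genes tested) 0 of 34 genes were called in LSK, where 0.338% of all genes were, and 0 of 33 in GMP, where 0.426% of all genes were. DESeq2 called 1 of 34 in LSK (Sqle, 2.94%), where it called 3.93% of all genes, and 1 of 33 in GMP (Insig1, 3.03%), where it called 2.31% of all genes, and limma-voom called 0 in both.

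At an unadjusted p below 0.05, 0 of the 34 genes were higher in LSK, against 5.82% of all genes, and 3 were lower (8.82%), against 5.98% of all genes. The 3 libraries with the agonist lay all above the 3 controls for 0 of the 34 genes in LSK, against 7.13% of all genes, and all below for 8 (23.5%), against 12.7%. Here and below, overlap was judged on CPM from library totals, without TMM scaling. Of these 8 genes, Cyp51 and Stard4 overlap in LSK once each CPM is divided by its TMM factor. In GMP, 8 of 33 genes (24.2%) were higher at an unadjusted p below 0.05, against 4.3% of all genes, and 0 were lower, against 4.84%. The 3 libraries with the agonist lay all above the 3 controls for 9 of 33 genes in GMP (27.3%), against 6.29% of all genes, and all below for 0, against 10.3%. The counts in GMP leaned on single libraries: 3 genes were higher at an unadjusted p below 0.05 without agonist library 3, 4 without agonist library 1, 5 without agonist library 2, 4 without control library 3 and 12 without control library 2. In LSK the count of lower genes was 1 without agonist library 1, 2 without agonist library 2, control library 1 or control library 2, 5 without control library 3 and 6 without agonist library 3. The share of all genes at this threshold was not counted in these fits.

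**Figure D1:**
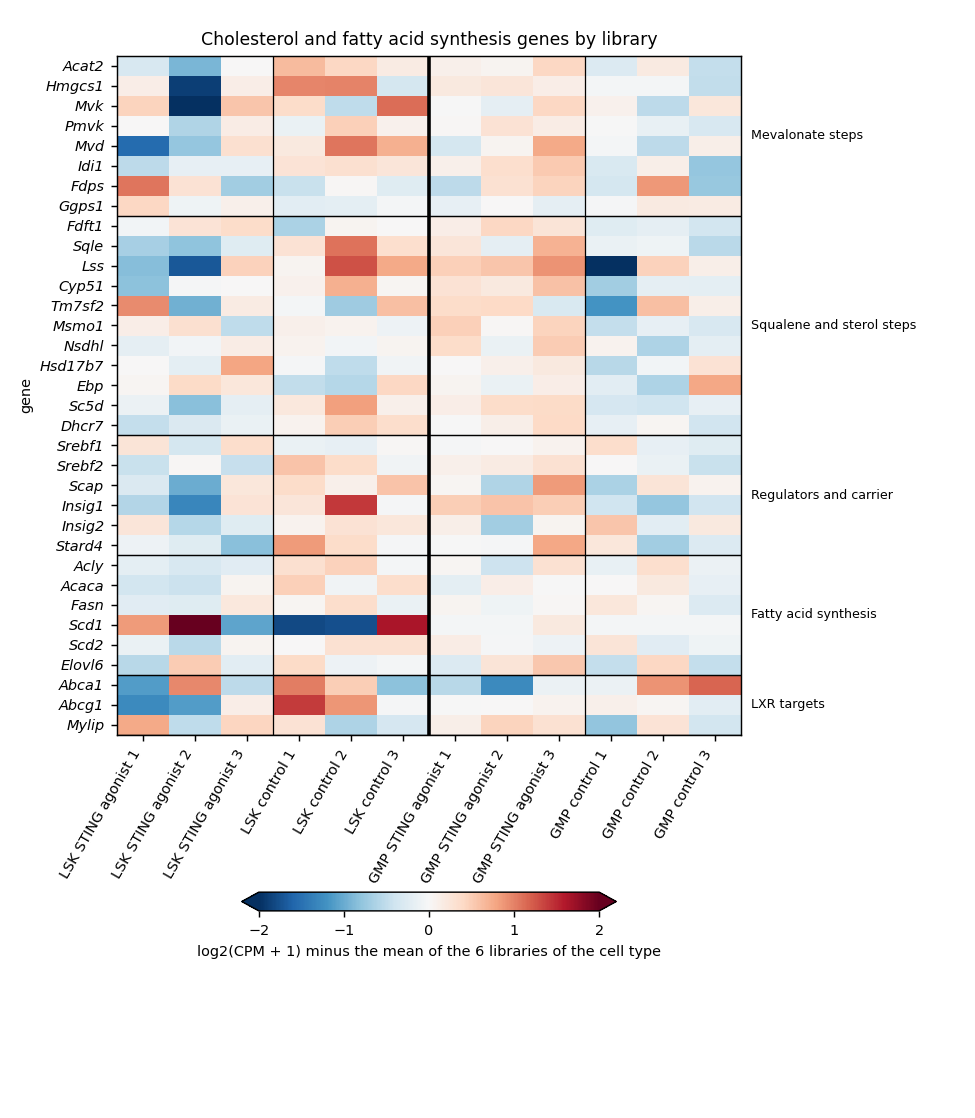
Level of each of the 34 genes (lines) in each of the 12 libraries (columns), as log2(CPM + 1) minus the mean of the 6 libraries of the same cell type, red above and blue below that mean. LSK agonist libraries 1 and 2 are mostly blue, with a median over the 34 genes of -0.16 and -0.33. LSK agonist library 3 is not, with a median of 0.08, against 0.14, 0.32 and 0.05 in LSK controls 1 to 3. GMP with the agonist is mostly red beside its controls. LSK agonist library 2 is the lowest of the 6 for 16 of 34 genes.

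**Figure D2:**
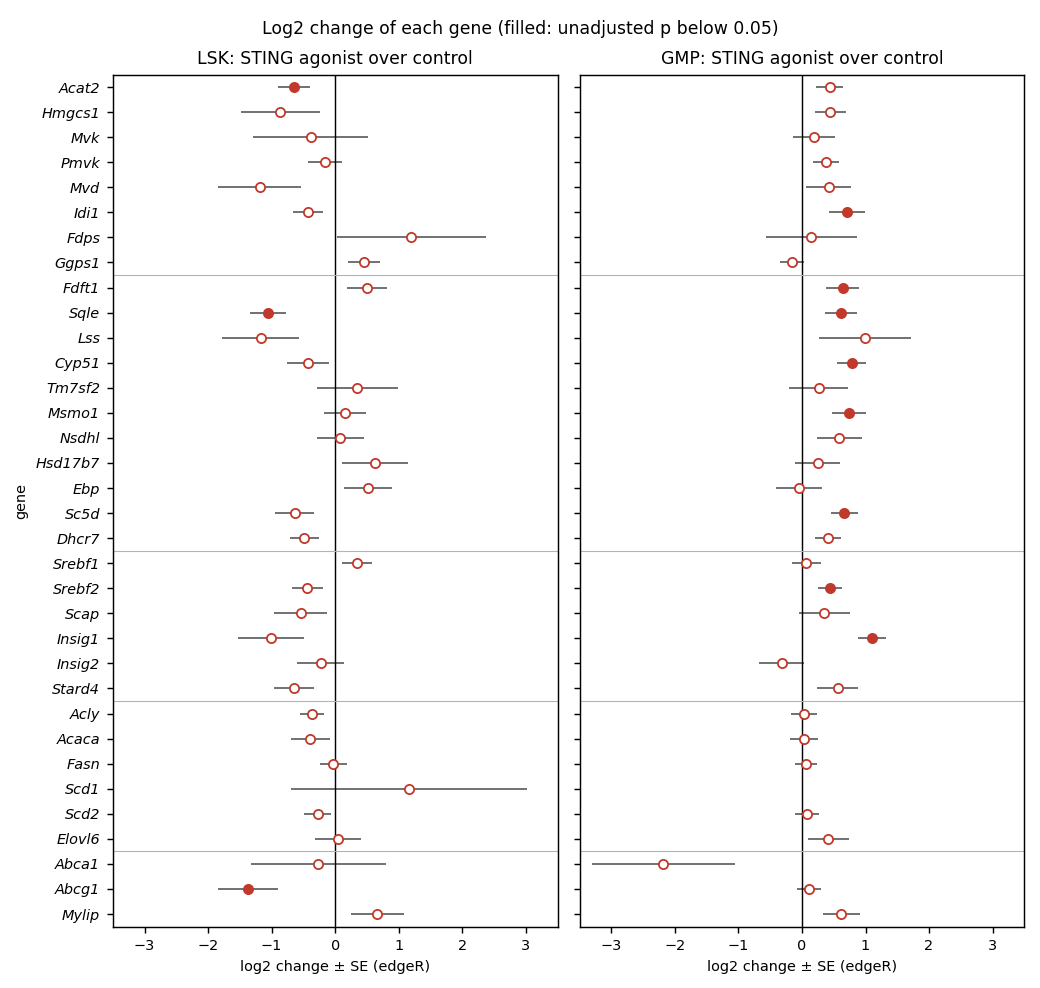
Log2 change of each gene with the STING agonist over control, with its standard error, in LSK (left) and GMP (right); filled points have an unadjusted p below 0.05. In GMP 29 of 33 points lie right of 0, and in LSK 22 of 34 lie left of it.

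The mevalonate steps turn acetyl-CoA into farnesyl and geranylgeranyl diphosphate. In LSK 6 of the 8 genes had a negative log2 change (median -0.41), and in GMP 7 of 8 had a positive one (median 0.40). Acat2, the thiolase that joins 2 acetyl-CoA at the start, had 59.8, 39.3 and 75.6 CPM in LSK with the agonist, against 116, 100 and 84.1 CPM in LSK controls. All 3 values with the agonist were below all 3 controls, and the log2 change was -0.65 ± 0.26 (SE; adjusted p = 0.390, edgeR). In GMP, Acat2 had 86.0, 83.6 and 107 CPM with the agonist, against 66.1, 91.5 and 57.4 CPM in controls, groups that overlapped (log2 change 0.44 ± 0.21, adjusted p = 0.575, edgeR). Idi1, the isomerase that makes dimethylallyl diphosphate, showed the same order. Its 27.9, 35.9 and 36.0 CPM in LSK with the agonist lay below the 49.1, 50.6 and 48.1 CPM of LSK controls, which were close to each other. In GMP it had 26.8, 31.9 and 36.4 CPM with the agonist and 19.9, 27.0 and 14.1 CPM in controls, with control library 2 just above the lowest agonist library. Neither passed the test, with an adjusted p of 0.538 in LSK and 0.496 in GMP (edgeR).

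Hmgcs1, the synthase that makes HMG-CoA, had 28.4, 29.3 and 27.2 CPM in GMP with the agonist, against 24.1, 23.9 and 17.3 CPM in GMP controls, without overlap (log2 change 0.45, adjusted p = 0.650, edgeR). In LSK it had 17.5, 3.60 and 17.5 CPM with the agonist and 32.5, 32.7 and 12.2 CPM in controls, so that both groups held 1 low library. Pmvk, the phosphomevalonate kinase, separated in GMP by a narrow gap, at 50.4 to 60.3 CPM with the agonist and 39.5 to 49.4 CPM in controls. Mvd, the mevalonate diphosphate decarboxylase, averaged 5.73 ± 4.35 CPM in LSK with the agonist and 14 ± 4.42 CPM in LSK controls (SD, n = 3 each). In GMP, Mvd averaged 23.7 ± 9.80 CPM with the agonist and 18.3 ± 4.24 CPM in controls (SD, n = 3 each), and the groups overlapped in both cell types. Mvk, the mevalonate kinase, spread from 0.790 to 9.53 CPM in LSK with the agonist and from 4.04 to 14.6 CPM in LSK controls.

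The remaining genes, Ggps1 and Fdps, were those of the mevalonate steps with a positive log2 change in LSK. Ggps1 makes geranylgeranyl diphosphate for protein prenylation, and had 40.2 to 57.1 CPM in LSK with the agonist, against 36.4 to 41.3 CPM in LSK controls. In GMP it had 48.4 to 55.5 CPM with the agonist and 54.2 to 62.6 CPM in controls, so its log2 change was 0.46 in LSK and -0.16 in GMP, with overlap in both. Fdps, the farnesyl diphosphate synthase, was counted at 0.383 to 3.72 CPM in LSK with the agonist, 0.643 to 1.29 CPM in LSK controls, 1.63 to 4.16 CPM in GMP with the agonist and 1.24 to 5.87 CPM in GMP controls. An exon of Fdps overlaps one of Gm43738 on the same strand by 197 bases in the GENCODE annotation, and counting can leave such reads out or split them between genes. Fdps has 4208 exon bases, and the part of this overlap in its low counts was not tested. An exon of each of 12 of the 34 genes overlaps one of another annotated gene, among them Cyp51 with Akap9, Fdft1 with Ctsb and Tm7sf2 with Vps51, and no source used here states whether the counting used strand. Acat2 also has a close copy in the mouse genome, Acat3, and Scd1 and Scd2 belong to a family of alike genes, so their counts share that uncertainty.

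The squalene and sterol steps held 5 of the 8 genes that were higher in GMP at an unadjusted p below 0.05. Of the 11 genes of these steps, 10 had a positive log2 change in GMP (median 0.61), while in LSK 6 were positive and 5 negative (median 0.08). Cyp51 removes a methyl group from lanosterol (ENSMUSG00000001467, chromosome 5, 4081145 to 4104746 on the minus strand, GRCm38). It had 52.2, 48.6 and 63.7 CPM in GMP with the agonist, against 25.8, 37.3 and 36.7 CPM in GMP controls, without overlap (log2 change 0.79 ± 0.23 SE, adjusted p = 0.277, edgeR). In LSK it had 27.0, 47.8 and 48.8 CPM with the agonist and 51.8, 80.3 and 50.2 CPM in controls, so the agonist libraries all lay below the controls (log2 change -0.43 ± 0.32, adjusted p = 0.659, edgeR). Sc5d, the desaturase near the end of the route (ENSMUSG00000032018, chromosome 9, 42251595 to 42264256 on the minus strand, GRCm38), had 42.6, 50.0 and 51.0 CPM in GMP with the agonist and 30.6, 29.3 and 34.6 CPM in GMP controls (log2 change 0.67 ± 0.21, adjusted p = 0.349, edgeR). In LSK, Sc5d had 39.6, 23.7 and 38.2 CPM with the agonist and 50.0, 77.1 and 46.2 CPM in controls (log2 change -0.64 ± 0.31, adjusted p = 0.473, edgeR). By CPM from library totals, Cyp51 and Sc5d were the 2 genes of the 34 whose groups did not overlap in either cell type, lower with the agonist in LSK and higher in GMP. For Cyp51 this depended on the scaling. The TMM factor was 0.91 for LSK agonist library 2 and 1.11 for LSK control library 1, and dividing by these factors makes its LSK groups overlap.

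Sqle, the squalene epoxidase and a rate-limiting enzyme of the later route, had the lowest p-value of the 34 genes in LSK (ENSMUSG00000022351, chromosome 15, 59315077 to 59331192 on the plus strand, GRCm38). It had 56.7, 51.0 and 76.1 CPM in LSK with the agonist, against 111, 193 and 115 CPM in LSK controls. The highest agonist library lay well below the lowest control, and the log2 change was -1.06 ± 0.28 (SE; unadjusted p = 0.00532, adjusted p = 0.279, edgeR). DESeq2 put Sqle past the threshold in LSK (adjusted p = 0.0155), as did edgeR with no filter on low counts (adjusted p = 0.0134), and over all alternatives its adjusted p ran from 0.0134 to 0.714. In GMP, Sqle had 60.1, 44.5 and 82.0 CPM with the agonist and 45.9, 47.4 and 34.4 CPM in controls, which overlapped (log2 change 0.61 ± 0.25, adjusted p = 0.514, edgeR). With the agonist, the levels in the 2 cell types thus lay close to each other, at 61.3 ± 13.2 CPM in LSK and 62.2 ± 18.9 CPM in GMP (SD, n = 3 each).

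Msmo1 and Fdft1 separated in GMP and overlapped in LSK. Msmo1, the methylsterol monooxygenase, had 27.6, 20.0 and 27.1 CPM in GMP with the agonist, against 13.9, 17.4 and 15.5 CPM in GMP controls (log2 change 0.74 ± 0.26 SE, adjusted p = 0.427, edgeR). In LSK it averaged 26.3 ± 7.61 CPM with the agonist and 26.3 ± 1.98 CPM in controls (SD, n = 3 each). Fdft1, the squalene synthase that commits farnesyl diphosphate to sterols, had 18.2, 22.4 and 20.0 CPM in GMP with the agonist and 13.8, 14.5 and 12.6 CPM in GMP controls, without overlap (log2 change 0.64 ± 0.27, adjusted p = 0.516, edgeR). In LSK, Fdft1 had 31, 39.0 and 41.8 CPM with the agonist and 20.6, 33.4 and 32.5 CPM in controls, so its log2 change there was positive as well (0.50), with overlap.

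Dhcr7, which makes cholesterol from its 7-dehydro precursor, had 51.8 to 66.1 CPM in LSK with the agonist, all below the 76.4 to 102 CPM of LSK controls (log2 change -0.49, adjusted p = 0.450, edgeR). In GMP its 56.4 to 74.8 CPM with the agonist overlapped the 43.3 to 58.5 CPM of controls. Lss, the lanosterol synthase, separated in GMP, at 13.8 to 18.7 CPM with the agonist and 0.855 to 13.7 CPM in controls, by a gap that was small beside the spread of the controls. In LSK, Lss had 4.27 to 22.6 CPM with the agonist and 16.8 to 40.1 CPM in controls. The other sterol genes (Tm7sf2, Nsdhl, Hsd17b7 and Ebp) had log2 changes between 0.08 and 0.62 in LSK and between -0.05 and 0.59 in GMP, with overlap in both cell types.

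**Figure D3:**
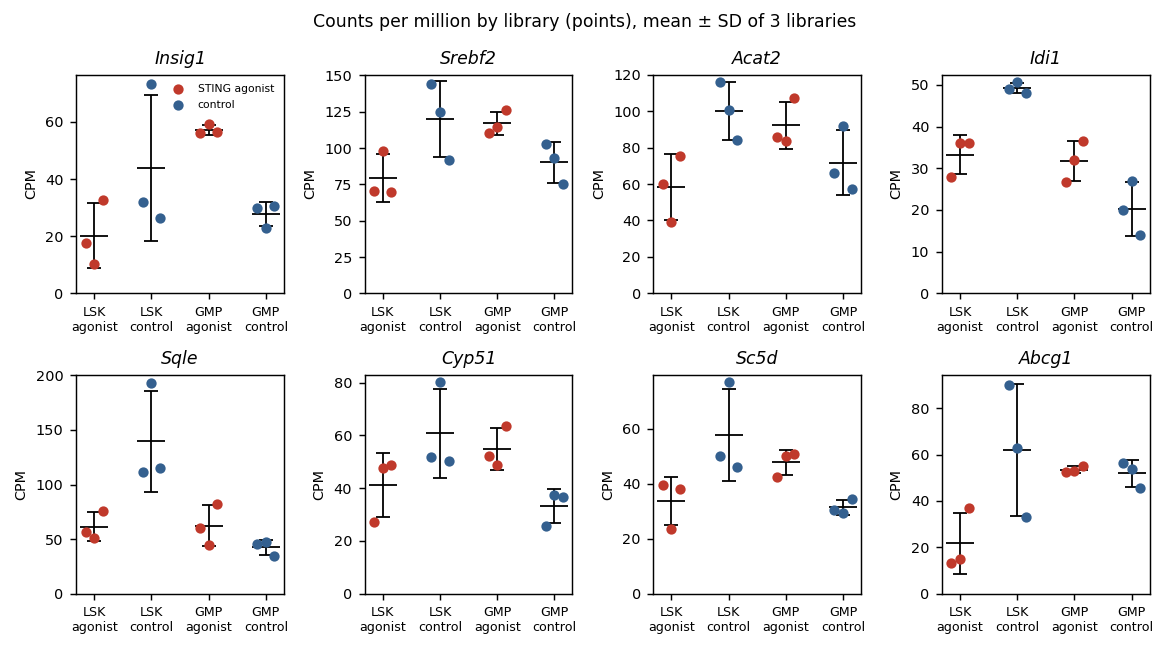
Level in CPM of 8 of the genes in every library (points), with the mean and SD of the 3 libraries of each group (bars), agonist in red and control in blue, LSK left and GMP right of each panel. Cyp51 and Sc5d separate in opposite directions in the 2 cell types, and the 3 GMP libraries with the agonist lie within 56.2 to 59.3 CPM for Insig1.

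Among the genes of sterol sensing and transport, Insig1 had the largest difference in GMP. Insig1, the sterol-sensitive anchor of SCAP (ENSMUSG00000045294, chromosome 5, 28071363 to 28078662 on the plus strand, GRCm38), had 56.2, 59.3 and 56.3 CPM in GMP with the agonist, against 29.9, 22.9 and 30.4 CPM in GMP controls. The groups averaged 57.2 ± 1.76 CPM with the agonist and 27.7 ± 4.2 CPM in controls (SD, n = 3 each). The log2 change was 1.10 ± 0.22 (SE; unadjusted p = 0.000643, adjusted p = 0.0921, edgeR). DESeq2 put Insig1 past the threshold (adjusted p = 0.00101), as did edgeR with no filter on low counts (adjusted p = 0.00604), and over all alternatives its adjusted p ran from 0.00101 to 0.677. In LSK, Insig1 had 17.6, 10.3 and 32.8 CPM with the agonist and 32.1, 73.3 and 26.4 CPM in controls, which overlapped (log2 change -1.01 ± 0.52, adjusted p = 0.493, edgeR). Without LSK control library 2, which held the value of 73.3 CPM, that log2 change was -0.39.

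Srebf2, which encodes SREBP-2, had 110, 115 and 126 CPM in GMP with the agonist, against 103, 92.9 and 75.1 CPM in GMP controls, without overlap (log2 change 0.44 ± 0.18, adjusted p = 0.516, edgeR). In LSK it had 70.5, 98.3 and 69.7 CPM with the agonist and 144, 125 and 91.5 CPM in controls, with 1 agonist library inside the range of the controls (log2 change -0.44, adjusted p = 0.543, edgeR). Srebf1, whose products favour fatty acid genes, did not follow: it averaged 75.8 ± 18.7 CPM in LSK with the agonist and 65.7 ± 4.81 CPM in LSK controls (SD, n = 3 each). In GMP it averaged 54.2 ± 1.93 CPM with the agonist and 54.0 ± 13.1 CPM in controls (SD, n = 3 each). Stard4, a carrier of cholesterol between membranes, had 28.6 to 48.4 CPM in LSK with the agonist, below the 51.0 to 94.4 CPM of LSK controls (log2 change -0.65, adjusted p = 0.468, edgeR), and overlapped in GMP (log2 change 0.56). Insig2, the second anchor, had log2 changes of -0.23 in LSK and -0.32 in GMP, and Scap, which escorts SREBP, of -0.55 in LSK and 0.35 in GMP, all with overlap.

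The genes of fatty acid synthesis had smaller log2 changes than those of the sterol steps in GMP, a difference between lists that was not tested. In GMP the 5 genes tested had log2 changes of 0.03 to 0.41 (median 0.06), and scaling by library size alone turned the sign for Acly, Acaca and Fasn. Fasn, the fatty acid synthase, averaged 224 ± 11.2 CPM in GMP with the agonist and 225 ± 38.7 CPM in GMP controls (SD, n = 3 each). Scd2, a stearoyl-CoA desaturase, averaged 233 ± 20.3 CPM in GMP with the agonist and 231 ± 41.2 CPM in GMP controls (SD, n = 3 each). Acly, which cuts citrate into acetyl-CoA for both lipid routes, had 251, 232 and 247 CPM in LSK with the agonist, against 360, 396 and 279 CPM in LSK controls. The 3 agonist libraries were close to each other and below every control, with a log2 change of -0.36 ± 0.19 (SE; adjusted p = 0.496, edgeR). In GMP, Acly had 301, 220 and 365 CPM with the agonist and 266, 369 and 271 CPM in controls, which overlapped. Elovl6, which lengthens palmitate, overlapped in both cell types, at 18.2, 39.1 and 23.2 CPM in LSK with the agonist and 35.8, 25.2 and 26.5 CPM in LSK controls. Its GMP values were 23.2, 33.9 and 41.7 CPM with the agonist and 20.1, 38.1 and 20.1 CPM in controls (log2 change 0.41 ± 0.32, adjusted p = 0.782, edgeR).

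Scd1, the desaturase that dominates in liver, reached 14.7 CPM in LSK with the agonist and 10.2 CPM in LSK controls, and was far lower in other libraries of both groups. It had 194, 501 and 29 counts in LSK with the agonist and 1, 3 and 341 counts in LSK controls. In GMP it had 0, 0 and 7 counts with the agonist and 0 in all 3 controls, which allows up to 0.0937 CPM in the shallowest of them (3 counts; counting error only). Such a pattern gives no fold change that can be read.

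Of the 3 LXR targets, none was called. Abcg1, which exports cholesterol to lipoproteins, had 13.4, 14.9 and 37.0 CPM in LSK with the agonist, against 89.8, 62.9 and 33.0 CPM in LSK controls. Agonist library 3 and control library 3 crossed, while the other libraries stood far apart (log2 change -1.37 ± 0.47 SE, adjusted p = 0.344, edgeR). With no filter on low counts Abcg1 passed (adjusted p = 0.00716), and over all alternatives its adjusted p ran from 0.00716 to 0.719. In GMP its 52.3, 52.9 and 55.2 CPM with the agonist lay among the 56.5, 53.9 and 45.5 CPM of controls (log2 change 0.11 ± 0.19, adjusted p = 0.935, edgeR). Mylip, a ubiquitin ligase that removes lipoprotein receptors, had 33.2, 42.0 and 37.8 CPM in GMP with the agonist and 17.2, 37.1 and 23.4 CPM in GMP controls (log2 change 0.62 ± 0.29, adjusted p = 0.567, edgeR). In LSK it had 36.7, 14.7 and 29.3 CPM with the agonist and 26.2, 13.6 and 16.7 CPM in controls, so that it leaned the same way with overlap (log2 change 0.66). Abca1, the other exporter, was low throughout, at 0.0277 to 1.29 CPM in GMP with the agonist and 1.28 to 4.55 CPM in GMP controls. Its log2 change in GMP was the most negative of the set (-2.18 ± 1.12, adjusted p = 0.616, edgeR), and the groups touched at 1.29 and 1.28 CPM.

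The opposite leaning of the 2 cell types was compared directly, as the log2 change in GMP minus that in LSK. A negative change in LSK with a positive one in GMP was found for 20 of the 33 genes tested in both (60.6%), against 2978 of 13159 genes in all (22.6%). The difference between the effects was positive for 26 of 34 genes (median 0.61, against 0.01 over all 16857 genes tested). At an adjusted p below 0.05 it was called for 0 of the 34 genes, as for 0% of all genes with edgeR, and DESeq2 called 1 of the 34 (2.94%, against 1.13% of all genes), Sqle (adjusted p = 0.0143, against 0.0143 to 0.705 over all alternatives), and limma-voom 0. At an unadjusted p below 0.05, 11 of 34 genes (32.4%) had a larger change in GMP, against 6.19% of all genes, and 0 had a smaller one, against 3.94%. The 11 were Acat2, Idi1, Mvd, Sqle, Cyp51, Sc5d, Dhcr7, Srebf2, Insig1, Stard4 and Abcg1, of which 7 are enzymes of the route from acetyl-CoA to cholesterol. When each of the 12 libraries was left out in turn, the count of such genes stayed between 9 and 11, and the share of all genes was not counted in those fits.

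Of single genes, Sqle had the lowest p-value for the difference between the effects, at 1.71 ± 0.40 on the log2 scale (SE; unadjusted p = 0.000882, adjusted p = 0.374, edgeR). That of Insig1 was larger but less certain, at 2.17 ± 0.60 (adjusted p = 0.374, edgeR). Among the others, Sc5d had 1.36 ± 0.38 (adjusted p = 0.374, edgeR), Cyp51 had 1.26 ± 0.40 (adjusted p = 0.409, edgeR) and Acat2 had 1.13 ± 0.33 (adjusted p = 0.374, edgeR). Srebf2 had a difference of 0.92 (adjusted p = 0.414, edgeR). Across the 4 groups, Srebf2 averaged 79.5 ± 16.3 CPM in LSK with the agonist, 120 ± 26.5 CPM in LSK controls, 117 ± 8.17 CPM in GMP with the agonist and 90.3 ± 14 CPM in GMP controls (SD, n = 3 each). Fdft1, Msmo1, Mylip and Srebf1, in contrast, had differences of 0.19, 0.63, 0.01 and -0.22, each with an unadjusted p above 0.05. The mitochondrial share of the counts also separated the groups in opposite directions in LSK and GMP, and its part in this pattern was not tested.

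Without the agonist, 7 of the 34 genes differed between the cell types. In GMP controls against LSK controls, 1 of 34 genes was higher at an adjusted p below 0.05 (2.94%), against 4.55% of all 16857 genes, and 6 were lower (17.6%), against 6.98% of all genes. Cell type markers differed in this comparison as well. The sum of 13 erythroid markers was 205 to 274 CPM in GMP controls and 9540 to 14260 CPM in LSK controls. It was 11150 to 15300 CPM in LSK with the agonist. The 10 granulocyte-monocyte markers, those of GMP themselves, summed to 40490 to 51600 CPM in GMP controls and 387 to 4146 CPM in LSK controls. All markers of both lists were detected in both control groups. With Ly6a nearly absent from LSK controls as well, these libraries are compared as labelled, and the part of erythroid cells in the result was not tested. The 6 genes that were lower in GMP were all enzymes of the route to cholesterol: Sqle, Idi1, Pmvk, Dhcr7, Fdft1 and Sc5d. Sqle had 45.9, 47.4 and 34.4 CPM in GMP controls, against 111, 193 and 115 CPM in LSK controls (log2 difference -1.73 ± 0.29 SE, adjusted p = 0.00242, edgeR). Idi1 had 19.9, 27.0 and 14.1 CPM in GMP controls and 49.1, 50.6 and 48.1 CPM in LSK controls (log2 difference -1.30 ± 0.27, adjusted p = 0.00834, edgeR). For both genes every GMP control lay below every LSK control, and both were called when each of the 12 libraries was left out in turn.

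The other calls between the controls were less firm. Pmvk was lower by a log2 difference of -1.06 (adjusted p = 0.0134, edgeR) and called in 9 of the 12 fits that left out 1 library, and Dhcr7 by -0.86 (adjusted p = 0.0184) in 8 of 12. Fdft1 was lower by -1.11 (adjusted p = 0.0250, edgeR) and called in 6 of 12, and Sc5d by -0.89 (adjusted p = 0.0491) in 1 of 12. Fasn, the gene that was higher in GMP, had 261, 230 and 184 CPM in GMP controls, against 135, 168 and 120 CPM in LSK controls (log2 difference 0.66 ± 0.19 SE, adjusted p = 0.0442, edgeR) and was called in 4 of 12. Without LSK control library 2, LSK control library 3 or any 1 of the 3 GMP control libraries, 3 of the 34 genes were called, and 4 without GMP agonist library 2. The agonist comparisons above use the same control libraries as this one, so the low level of these 6 enzymes in GMP controls and their positive log2 change in GMP with the agonist rest on the same 3 libraries.

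Levels were compared between genes per kilobase of exon. Acly had the highest mean of the 34 in both control groups, at 57.2 CPM per kb in GMP controls and 65.4 CPM per kb in LSK controls. Acat2 ranked 3 in both, at 28.2 CPM per kb in GMP controls and 39.4 CPM per kb in LSK controls. Scd2 ranked 2 in GMP controls with 42.2 CPM per kb and 4 in LSK controls with 30.0 CPM per kb. Fasn ranked 5 in GMP controls with 20.5 CPM per kb and 11 in LSK controls with 12.9 CPM per kb. Sqle ranked 14 in GMP controls and 5 in LSK controls, and Pmvk stood at 26 CPM per kb in GMP controls and 53.6 CPM per kb in LSK controls. Abca1, Fdps and Scd1 were the lowest in both control groups, each under 1 CPM per kb on average. Of the 33 pairs of neighbours in this order, the libraries of 31 overlapped in GMP controls and of 31 in LSK controls, as the plot of levels per exon length shows. The pairs apart were Scd2 above Acat2 and Abca1 above Scd1 in GMP controls, and Acat2 above Scd2 and Sqle above Srebf2 in LSK controls.

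**Figure D4:**
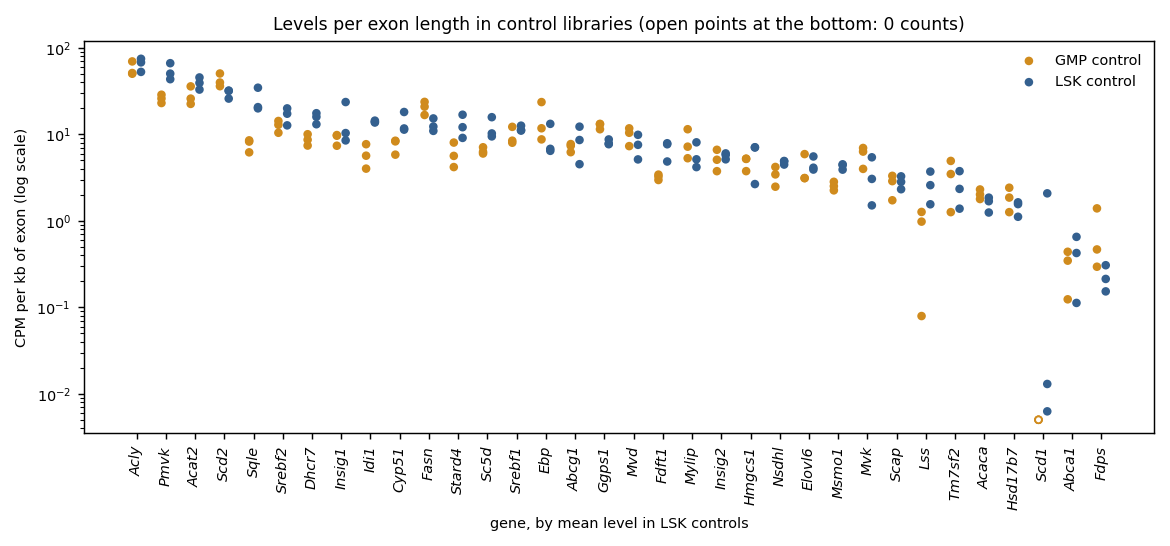
Level of each gene per kilobase of exon (CPM per kb, log scale) in the 3 GMP control libraries (ochre) and the 3 LSK control libraries (blue), ordered by the mean in LSK controls; an open point at the bottom is a gene with 0 counts. Acly has the highest mean in both cell types, Sqle and Idi1 are lower in GMP controls than in LSK controls in every library, and Scd1 has 0 counts in all GMP controls.

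Single libraries stood out across the set. In LSK, control library 2 held the highest of the 6 values for 14 of 34 genes, and agonist library 2 the lowest for 16 of 34. LSK agonist library 3 did not stand below the controls as a whole. Its median deviation from the mean of the 6 LSK libraries was 0.08 in log2(CPM + 1), against 0.05 in LSK control library 3. In GMP, agonist library 3 held the highest value for 15 of 34 genes and control library 3 the lowest for 12 of 34. The count of genes with a positive log2 change in GMP ran from 26 to 29 when each library was left out. The median log2 change of the set in LSK was -0.19 without control library 2 and ran from -0.33 to -0.19 over the 6 libraries left out. In GMP it was 0.26 without agonist library 3 and ran from 0.26 to 0.50. The sign of the median thus held in each of these fits, while its size leaned on a few libraries.

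A list of 44 further lipid genes (uptake, transport, oxysterols, fatty acid desaturation and activation) gave the setting. Of the 40 tested in each cell type, 0 were called with the agonist by edgeR, while DESeq2 called Fads2 and Vldlr in LSK (adjusted p = 0.0222 and 0.0260), and their median log2 change was -0.04 in LSK and 0.14 in GMP. At an unadjusted p below 0.05, 3 of 40 were higher (7.5%) and 3 lower (7.5%) in LSK, near the 5.82% and 5.98% of all genes. In GMP, 3 of 40 were higher (7.5%) and 0 lower, against 4.3% and 4.84% of all genes. The log2 change in GMP minus that in LSK was positive for 26 of 42 (median 0.38). At an unadjusted p below 0.05, 5 (11.9%) had a larger change in GMP and 1 (2.38%) a smaller one, against 6.19% and 3.94% of all genes. For this difference edgeR called 0. DESeq2 called Cyp27a1, Nr1h3 and Cyp7b1 (adjusted p = 0.0118, 0.0137 and 0.0331), all with 0 counts in some libraries. Fads1, the delta-5 desaturase of polyunsaturated fatty acids, had the order of Cyp51 and Sc5d. It had 48.9, 46.9 and 49.1 CPM in LSK with the agonist, against 85.7, 72.3 and 65.6 CPM in LSK controls. In GMP it had 30.3, 32.6 and 36.4 CPM with the agonist, against 24.9, 27.9 and 14.4 CPM in GMP controls, and the groups did not overlap in either cell type (log2 change -0.48 in LSK and 0.64 in GMP, adjusted p = 0.418 and 0.544, edgeR). Fads2, its partner desaturase, had 12.6, 20.6 and 51.8 CPM in LSK with the agonist and 81.6, 158 and 59.6 CPM in LSK controls (log2 change -1.71, adjusted p = 0.333, edgeR). Vldlr, a lipoprotein receptor, had 0.114, 0 and 1.20 CPM in LSK with the agonist and 11.1, 7.94 and 7.26 CPM in LSK controls (adjusted p = 0.360, edgeR), and Cyp27a1, which makes an oxysterol, 0.568, 3.19 and 1.81 CPM with the agonist and 0.0306, 0 and 0.209 CPM in controls (adjusted p = 0.382, edgeR). In GMP, Cyp27a1 had 2.02, 1.30 and 2.14 CPM with the agonist and 2.31, 5.69 and 5.32 CPM in controls. Its order was thus the reverse of that of Fads1, without overlap in either cell type (log2 change 4.62 in LSK and -1.22 in GMP). Npc2 and Mcat were the other genes higher in LSK (log2 change 0.54 and 1.20), and Slc25a1 and Oxsm those in GMP (0.45 and 1.48). Between the controls, 3 of 42 were higher in GMP at an adjusted p below 0.05 with edgeR (Cyp27a1, Npc2 and Elovl5; 7.14%, against 4.55% of all genes). A further 8 were lower (Acss2, Slc25a1, Fads1, Fads2, Fads3, Acsl5, Lpin1 and Lpcat3; 19%, against 6.98% of all genes). Lpin1, a phosphatidate phosphatase, had 10.2, 18.2 and 9.93 CPM in GMP controls and 118, 139 and 68.8 CPM in LSK controls, the log2 difference being -3.10 (adjusted p = 0.000109, edgeR).

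The authors' deposited table of fold changes gave an adjusted p below 0.05 to 3 pairs of gene and cell type among the 34 genes. In the authors' deposited table, Insig1 had a log2 fold change of 1.11 in GMP (adjusted p = 0.000276) and Cyp51 one of 0.79 in GMP (adjusted p = 0.0338). Sqle had a log2 fold change of -1.09 in LSK (adjusted p = 0.0194) in the authors' deposited table. The sizes are close to those of edgeR on the same counts, and the adjusted p-values are lower. No source used here names the test behind the authors' values.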

How the data were processed

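RNA of LSK and GMP from mouse bone marrow was amplified by Smart-Seq2, per the labels' protocols, in 12 libraries (4 groups of 3). The authors deposited raw read counts per gene, 1 table per cell type, per the file headers, beside their own log2 fold changes and adjusted p-values, which per the file headers compare agonist with control. No source used here names the aligner, counter or test. Per the submitters' processing notes the build was mm9, while the deposited positions equal those of GENCODE M21 (GRCm38) for 30 of the 34 genes. An empty line was left out of each table.

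From the counts, edgeR 4.0.16 (TMM scaling, its default filter on low counts, quasi-likelihood test, Benjamini-Hochberg over all genes tested, threshold 0.05) compared agonist with control within each cell type. A joint fit of all 12 libraries on genes in both tables tested the difference between the effects and GMP controls against LSK controls. Between libraries of a group, counts varied by a common biological coefficient of 74% (LSK), 54% (GMP) and 80.2% (joint fit). CPM used library totals, so its ratios differ a little from the TMM-scaled log2 changes, and exon lengths came from GENCODE M21. Alternatives were DESeq2 1.42.0, limma-voom 3.58.1, library totals alone, other filters, a replicate block, the joint fit and each library left out. The scripts were tested on simulated counts. Genes with full values were those called, or with an unadjusted p below 0.05 and no overlap, in either cell type, with up to 2 more per role where none met this; others are named for a stated count or contrast, after their values were seen. The genes and lists were chosen with earlier results of these data known. Floors and spreads cover counting and library error only.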

Additional observations from a re-analysis of the deposited data

Results flagged for a closer look

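Cyp51 and Sc5d stood out because, by CPM from library totals, their 3 agonist libraries lay all below the controls in LSK and all above them in GMP. For Cyp51 the separation in LSK does not hold under TMM scaling. The log2 change in GMP minus that in LSK was 1.26 for Cyp51 and 1.36 for Sc5d. The test of that difference did not pass for either (edgeR, adjusted p = 0.409 for Cyp51 and 0.374 for Sc5d), nor did it under any alternative, with adjusted p-values of 0.15 to 0.705 for Cyp51 and 0.0747 to 0.705 for Sc5d.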

How the results depend on the processing

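With DESeq2, 1 of the genes was called in LSK (Sqle), 1 in GMP (Insig1), 1 for the GMP effect minus the LSK effect (Sqle) and 11 in GMP against LSK controls, where edgeR called 7. With no filter on low counts, edgeR called 2 in LSK (Sqle and Abcg1) and 1 in GMP (Insig1), and the cause was not tested. Over all genes, calls in LSK were 511 with DESeq2 and 557 with no filter, against 47, and in GMP 339 and 275, against 64. The stricter filter gave 88 in LSK and 106 in GMP, the joint fit 107 and 40, and leaving out each library 11 to 36 and 18 to 78. For the difference between the effects DESeq2 called 179 of all genes, against 0, and leaving out each library gave 0 to 22. In GMP against LSK controls DESeq2 called 3052, against 1943, and leaving out each library gave 1019 to 2032. Genes of the set lower in LSK at an unadjusted p below 0.05 numbered 5 with DESeq2, 6 with no filter and 7 in the joint fit, against 3. Scaling by library totals alone gave a median log2 change of the set of -0.48 in LSK and 0.34 in GMP, against -0.12 and -0.11 over all genes. It put 9 genes of the set lower at an unadjusted p below 0.05 in LSK and 4 higher in GMP. The sign turned for Msmo1, Nsdhl and Elovl6 in LSK and for Acly, Acaca and Fasn in GMP. The share of all genes at an unadjusted p below 0.05 was not counted under these settings, so these larger or smaller counts cannot be read as a result about the set. Leaving out each library gave medians of -0.33 to -0.19 in LSK and 0.26 to 0.50 in GMP, 0 calls with the agonist in either cell type, and 3 to 7 calls in GMP against LSK controls. The labels number the libraries of each group alike, without saying that equal numbers are pairs. Same-numbered libraries correlated weakly in their deviations (r of 0.0643, 0.151 and 0.0246 in LSK and 0.0284, -0.0225 and 0.0231 in GMP). Not every library correlated best with its own number. So few libraries cannot decide whether the numbers pair them, and the main fits did not pair them. A fit with the replicate number as a block called 0 genes of the set in LSK, 0 in GMP, 0 for the difference and 3 in GMP against LSK controls, and 10 of all genes in LSK and 20 in GMP, with medians of -0.37 and 0.39. No result of the set changed sign while called. The counts of genes at an unadjusted p below 0.05 were followed through the alternatives after the data had been seen. A call of 0 does not show that the genes did not differ. Scd1, Abca1 and Fdps averaged under 1 CPM per kb of exon in controls.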
